A study of Mus musculus with 16 samples.

Results

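The liver transcripts described here come from 10 genes that p53 or growth arrest signals are known to control: Cdkn1a, Gadd45a, Gadd45b, Gadd45g, Btg2, Ccng1, Mdm2, Bax, Phlda3 and Trp53inp1. They were found by gene symbol among the 57010 genes of the deposited expression table, and each symbol matched 1 row. Young adult male C57BL/6J mice of WT genotype formed 4 groups of 4. Control mice are numbered 27, 28, 29 and 30. Cd mice (1, 2, 5 and 6) received CdCl2 at 1.25 mg/kg by daily intraperitoneal injection for 7 days. Se mice (39, 40, 41 and 44) ate a diet with 2 ppm of selenomethionine (SeMet) for 3 months. Cd+Se mice (13, 14, 15 and 16) had the SeMet diet for those 3 months and the CdCl2 injections over its last 7 days. The labels name no vehicle or control diet for the control mice. Poly(A) RNA of whole liver was sequenced, and values are TPM (transcript abundance scaled for transcript length and library total), so levels can be set side by side between genes. Of the 10 genes, 9 averaged 1 TPM or more across the 16 mice and were tested among the 11766 genes of the table that did so. Phlda3 was below that level and was compared by an exact permutation test.

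p53 is a transcription factor that is held low by MDM2, the ubiquitin ligase that marks it for destruction, and that accumulates when DNA damage, oxidation or other stress frees it from MDM2. It then switches on genes that stop the cell cycle, repair DNA, or trigger apoptosis, and it also switches on Mdm2, which closes a feedback loop. Several of these genes have other inputs too: the GADD45 and BTG2 transcripts respond quickly to cytokines, nutrients and hormones, and cadmium is a metal that accumulates in hepatocytes, where metallothioneins bind it.

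p53 binds a 20-base element built of 2 adjacent 10-base elements. The 250 bases upstream of each RefSeq start (GRCm38.p6) were searched for both, on a motif that reads the same on either strand, to show which of these genes carry the letters of a p53 element next to their start. The 10-base p53 consensus was present in 7.13% of 32851 windows of that length. Among the 9 genes with a window it was found for 5, namely Cdkn1a, Ccng1, Bax, Mdm2 and Gadd45a. The 20-base element, with at most 1 mismatch outside the fixed bases, was present in 0.0578% of all windows, 19 in number, of which Cdkn1a and Ccng1 were 2. Printed here are those windows, as the only ones of these genes with the longer element, and that of Bax, which rose under Cd. Each is 5′ to 3′, ends at the start or where the GENCODE gene begins, and has the matching bases in capitals. Cdkn1a lies on the plus strand at chr17:29090729-29090975, Ccng1 on the minus strand at chr11:40755312-40755536 and Bax on the minus strand at chr7:45466899-45467148.
Cdkn1a: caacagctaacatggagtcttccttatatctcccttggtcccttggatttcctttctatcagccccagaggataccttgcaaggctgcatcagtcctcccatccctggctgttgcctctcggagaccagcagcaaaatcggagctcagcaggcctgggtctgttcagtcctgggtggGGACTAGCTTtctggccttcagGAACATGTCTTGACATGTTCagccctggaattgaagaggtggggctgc
Ccng1: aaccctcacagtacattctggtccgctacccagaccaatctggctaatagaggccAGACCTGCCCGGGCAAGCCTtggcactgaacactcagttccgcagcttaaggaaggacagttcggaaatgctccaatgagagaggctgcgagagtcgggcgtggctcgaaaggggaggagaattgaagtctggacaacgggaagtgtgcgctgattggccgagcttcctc
Bax: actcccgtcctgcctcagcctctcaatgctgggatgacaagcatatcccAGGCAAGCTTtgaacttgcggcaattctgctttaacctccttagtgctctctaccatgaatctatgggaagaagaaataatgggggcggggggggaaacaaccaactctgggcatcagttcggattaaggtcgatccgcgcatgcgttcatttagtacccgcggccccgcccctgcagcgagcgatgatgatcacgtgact
The 20-base element of Cdkn1a began 51 bases before the more upstream of its 2 RefSeq starts and 2841 bases before the other. In Gadd45a the 10-base match, GGGCTAGCCC, began 40 bases before the start, at a place that GENCODE counts as transcribed. Windows of Gadd45b, Gadd45g, Btg2 and Phlda3 held no match to these letters. These matches describe sequence only, and the window leaves out introns and distal regions. The deposited table itself holds no coordinates.

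The Cd labels could be checked on Mt1, a metallothionein gene that cadmium is known to raise. It was at least 3178.11 TPM in every mouse given Cd and at most 431.03 TPM in every mouse without it. The Se diet labels were not checked this way. Cd+Se mouse 15 and Se mouse 40 stood apart in the genes described here. Mouse 15 had the highest value of all 16 mice in 4 of the 10 genes (Cdkn1a, Gadd45g, Btg2 and Trp53inp1), and mouse 40 in 4 others (Mdm2, Ccng1, Gadd45b and Phlda3). Some of the changes below are therefore given with and without them. Levels of cell type markers also moved with Cd. All 4 Kupffer cell markers fell, their summed level going from 92.81 to 114.5 TPM in control mice to 29.57 to 50.1 TPM in Cd mice, and the sum was 24.08 to 56.61 TPM in Cd+Se mice. The 3 neutrophil markers tested rose, with sums of 5.73 to 15.7 TPM in control and 30.96 to 39.63 TPM in Cd mice, while Ly6g, a defining neutrophil gene, stayed at or below 0.17 TPM in every library. Of the other marker lists under Cd, 2 of 3 monocyte markers tested rose and 2 of 4 sinusoidal endothelial, 1 of 3 stellate and 1 of 5 hepatocyte markers fell. Of all genes tested, 5.82% rose and 24.9% fell under Cd. The sum of the 4 monocyte markers listed overlapped, at 43.21 to 59.71 TPM in control and 37.92 to 56.72 TPM in Cd mice. Lyz2, Lyve1 and Cps1 were called, all higher, in Cd+Se against Cd, where 13.6% of all genes were called higher. The 3 erythroid markers did not pass the test in either comparison, and cholangiocyte, T cell and B cell markers averaged under 1 TPM. Hepatocyte markers had the highest sum of these marker lists in each library, at 37458.4 TPM or more. That sum was 57464.9 to 79743.9 TPM in control mice and 37458.4 to 63511.7 TPM in Cd mice. Se mouse 40 had the highest hepatocyte sum of all 16 mice, 108795 TPM, and the highest Kupffer cell sum, 125.72 TPM. The part of these shifts in the genes described below was not tested. In whole liver, fewer cells of a type and less RNA per cell cannot be told apart.

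In livers of control mice the 10 genes spanned a wide range of levels. Gadd45g was first at 21.3 ± 8.62 TPM (SD, n = 4), followed by Bax at 16.7 ± 1.62, Mdm2 at 16.2 ± 1.02, Trp53inp1 at 15.5 ± 2.74, Ccng1 at 12.1 ± 0.782 and Gadd45a at 11.6 ± 2.66 TPM. Each of these overlapped the next across the 4 mice, so their order is not fixed. Gadd45a was above Btg2 (4.21 ± 1.39 TPM) in every control mouse, and Btg2 was above Gadd45b (1.99 ± 0.564 TPM) in every control mouse. Cdkn1a at 0.788 ± 0.379 TPM and Phlda3 at 0.605 ± 0.140 TPM were at the bottom and overlapped each other. Cdkn1a, the textbook p53 target, was thus among the scarcest of the 10 transcripts in untreated liver.

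**Figure D1:**
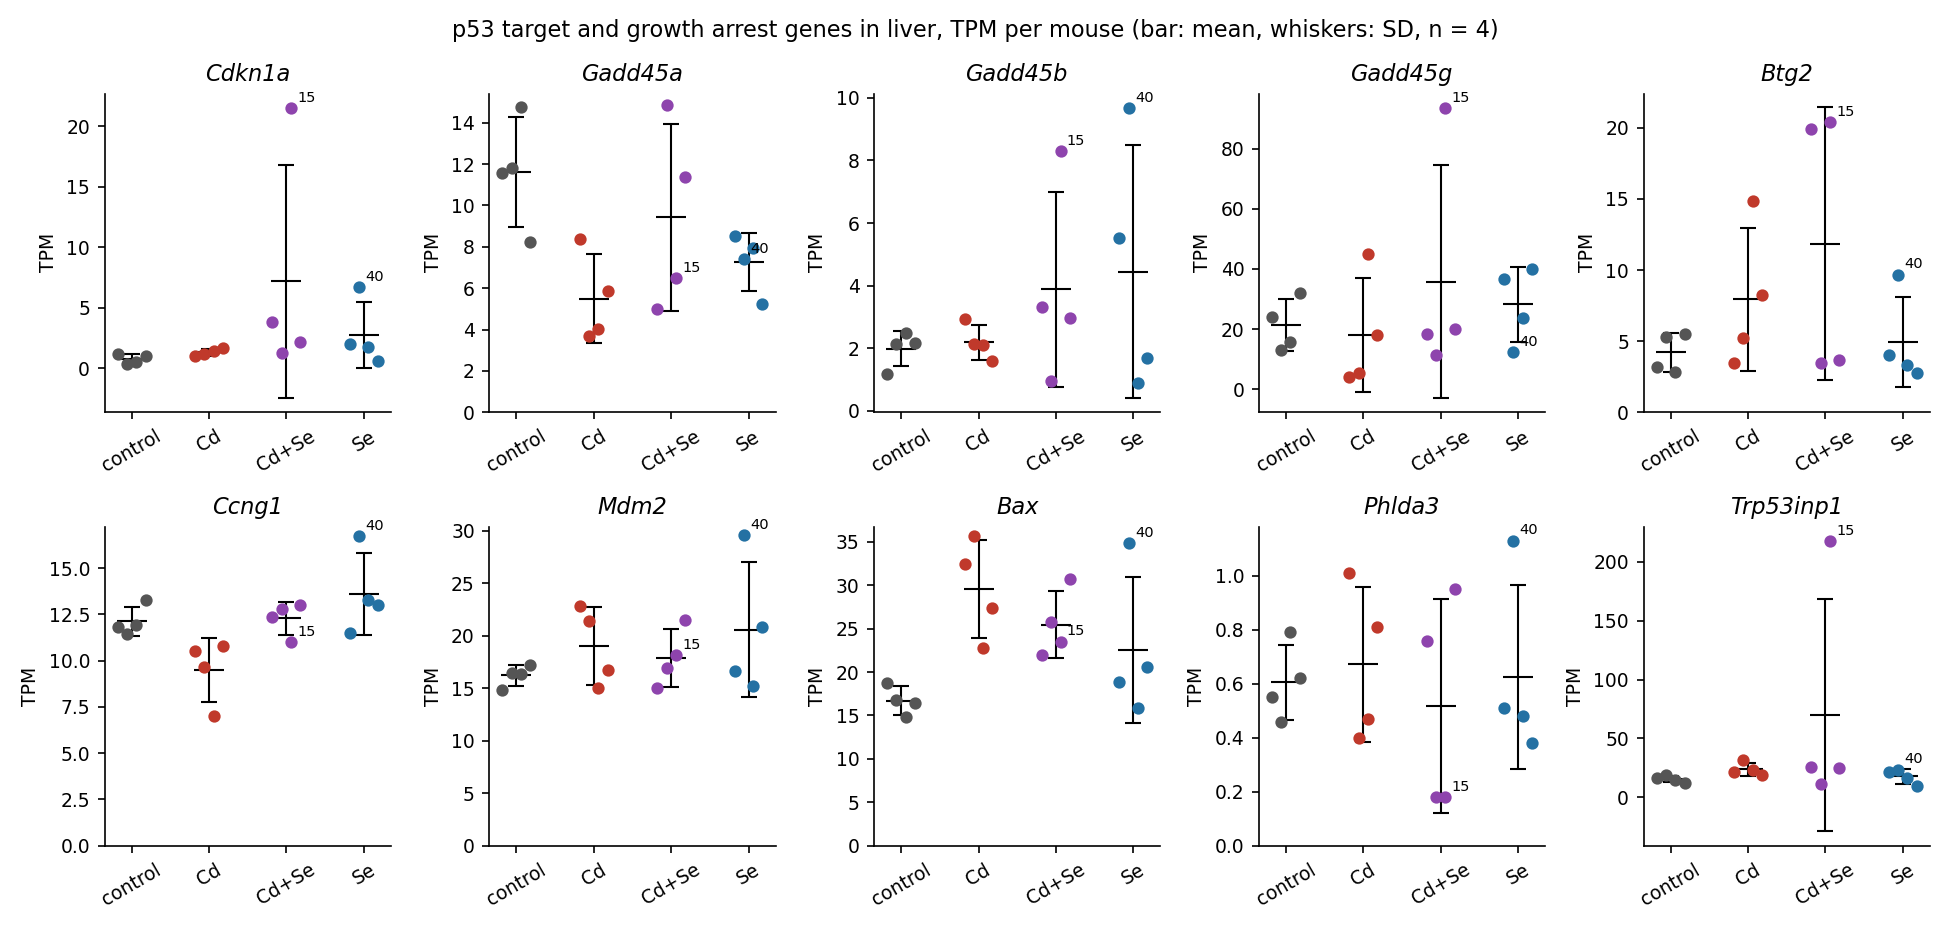
TPM of each of the 10 genes in every mouse, 1 panel per gene with its own linear axis, groups on the horizontal axis, points for mice, a horizontal bar for the group mean and whiskers for the SD (n = 4), which run below 0 where 1 mouse sets the spread. Bax is higher and Gadd45a lower in Cd than in control mice, and mice 15 and 40, whose numbers are printed, have the highest value of their group in 5 and 8 of the 10 panels.

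Whether cadmium changed these genes was asked by comparing Cd with control mice, with limma on log2(TPM + 1) across all tested genes and a Benjamini-Hochberg adjusted p under 0.05 as the threshold for a call. Bax, the pore-forming killer of the BCL2 family, rose, and Gadd45a, a stress protein that binds CDK1 and PCNA, fell. The other 7 tested genes did not pass. A call in 2 of 9 genes is 22.2%, beside 30.8% of all 11766 genes. In the higher direction, 5.82% of all genes were called, and in the lower direction 24.9%. At an unadjusted p under 0.05 there were 3 of the 9 genes (Bax, Gadd45a and Ccng1) beside 42.5% of all genes, and in 3 of 9 (Bax, Trp53inp1 and Ccng1) the groups did not overlap, beside 34.2%. The count of calls was thus not above the background. The median log2 fold change of the 9 genes was 0.20, against -0.17 for all genes, and 6 of 9 lay above that overall median.

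Bax is the clearest of the 10. Its level was 18.76, 16.81, 14.8 and 16.49 TPM in control mice 27, 28, 29 and 30, and 32.42, 35.63, 22.81 and 27.33 TPM in Cd mice 1, 2, 5 and 6. Every Cd mouse was above every control mouse, and the means were 29.5 ± 5.64 and 16.7 ± 1.62 TPM (SD, n = 4), a ratio of 1.77. The log2 fold change was 0.77 (SE 0.196, limma adjusted p = 0.0082), and it passed the threshold under each of the 25 alternatives run. In Cd+Se mice 13, 14, 15 and 16 Bax was 21.91, 25.72, 23.5 and 30.69 TPM, again above every control mouse. Mouse 13 lay just below the lowest Cd mouse and the other 3 within the Cd range. Cd+Se differed from Cd by -0.20 on the log2 scale, with a 95% interval from -0.61 to 0.22 and an adjusted p of 0.505. Against control mice the Cd+Se change was 0.57 (unadjusted p = 0.00987, adjusted p = 0.27), which does not pass. In Se mice 39, 40, 41 and 44 Bax was 18.84, 34.81, 15.91 and 20.61 TPM, so that mouse 40 alone reached the level seen with Cd. The Se change against control was 0.35, and 0.13 without mouse 40.

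Gadd45a moved the other way. Control mice had 11.59, 11.8, 14.75 and 8.25 TPM and Cd mice 8.4, 3.68, 4.05 and 5.84 TPM. The Cd values were lower except that Cd mouse 1 lay just above control mouse 30, so the groups touched. Means were 11.6 ± 2.66 and 5.49 ± 2.16 TPM, a ratio of 0.474, with a log2 fold change of -0.99 (SE 0.284, limma adjusted p = 0.016). The call was lost without control mouse 29 (adjusted p = 0.0538) or without Cd mouse 5 (0.0542), with log2 fold changes of -0.87 and -0.89. Cd+Se mice had 4.98, 14.84, 6.5 and 11.39 TPM, of which mice 13 and 15 lay within the Cd range, mouse 16 within the control range and mouse 14 just above it. Their change against Cd mice was 0.63 (95% interval 0.03 to 1.23, adjusted p = 0.132), and without Cd+Se mouse 13 it was 0.87 with an adjusted p of 0.0436. That was the only 1 of 25 alternatives to pass, and leaving out 1 mouse at a time gave 0.40 to 0.87. Se alone gave 8.51, 7.39, 7.93 and 5.25 TPM, of which 3 were below every control mouse, with a log2 fold change of -0.60 (unadjusted p = 0.0505, adjusted p = 1). The interaction, which asks whether the Cd effect differed with Se in the diet, was 1.23 for Gadd45a (SE 0.401, unadjusted p = 0.00724, adjusted p = 0.11), the only one of the 9 genes under 0.05 before adjustment.

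Gadd45b and Gadd45g, the close relatives of Gadd45a, which bind the same partners, did not pass the test under Cd, and whether their changes differed from that of Gadd45a was not tested. Gadd45b was 1.17, 2.13, 2.47 and 2.17 TPM in control mice and 2.92, 2.12, 2.1 and 1.58 TPM in Cd mice, which overlap in part, with a log2 fold change of 0.10 (95% interval -0.91 to 1.10). In Cd+Se mice it was 3.3, 0.95, 8.3 and 2.96 TPM, and in Se mice 5.53, 9.68, 0.89 and 1.68 TPM, so the highest values came from mice 15 and 40. Its change in Cd+Se against control was 0.51, and 0.13 without mouse 15. In Se against control it was 0.56, and 0.13 without mouse 40. Among the Cd mice, Gadd45g had the widest spread of the 10 genes. It was 24.08, 13.23, 15.69 and 32.18 TPM in control mice and 4.05, 5.57, 44.85 and 17.94 TPM in Cd mice, where mouse 5 had 11.1-fold the level of mouse 1. Cd mice 1 and 2 lay below every control mouse and Cd mouse 5 above every one, so that the log2 fold change of -0.69 had a 95% interval from -2.09 to 0.71. Cd+Se mice had 18.44, 11.39, 93.46 and 20.03 TPM and Se mice 36.78, 12.47, 23.7 and 39.85 TPM. Without mouse 15, the Cd+Se change against control turned from 0.32 to -0.30.

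Cdkn1a encodes p21, the inhibitor of cyclin-dependent kinases that carries out the G1 arrest of p53. Its level was 1.19, 0.39, 0.55 and 1.02 TPM in control mice and 1.06, 1.18, 1.41 and 1.72 TPM in Cd mice, where all values stayed under 2 TPM. The Cd mice were mostly higher, but 2 of them overlapped the control range, and the log2 fold change was 0.41 (SE 0.552, adjusted p = 0.607). Cd+Se mice had 3.84, 1.24, 21.49 and 2.15 TPM, all above the control mice, and Se mice had 2.03, 6.69, 1.73 and 0.59 TPM. Cd+Se exceeded control by 1.58 on the log2 scale (95% interval 0.41 to 2.75, unadjusted p = 0.0111, adjusted p = 0.284), and Cd by 1.18 (unadjusted p = 0.0489, adjusted p = 0.149). Mouse 15 had 8.92-fold the mean of the other 3 Cd+Se mice, and without it the 2 changes were 0.88 and 0.48.

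Trp53inp1, whose product is a nuclear stress protein that acts with p53 and in autophagy, was 16.08, 18.68, 15.1 and 12.05 TPM in control and 21.58, 31.73, 22.96 and 19.21 TPM in Cd mice. The groups did not overlap, and the means differed 1.54-fold. In the fit over all 16 mice, which share 1 estimate of the spread, the log2 fold change of 0.59 had an SE of 0.587 and an adjusted p of 0.473. With only the Cd and control mice in the fit, the adjusted p was 0.0302 at the same change. Cd+Se mice had 25.55, 11.33, 217.05 and 25.08 TPM, and Se mice 21.66, 23.68, 16.22 and 9.64 TPM. Mouse 15 stood at 10.5-fold the mean of the other 3 Cd+Se mice, and without it the Cd+Se change against Cd went from 0.59 to -0.26.

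Btg2, an antiproliferative partner of the CCR4-NOT deadenylase, was 3.19, 5.32, 2.83 and 5.49 TPM in control and 3.43, 5.24, 14.87 and 8.21 TPM in Cd mice. Cd mice 5 and 6 were above every control mouse and the other 2 were not, giving a log2 fold change of 0.65 (adjusted p = 0.361). Cd+Se mice also split, at 19.89, 3.45, 20.4 and 3.69 TPM, with mice 13 and 15 near 20 TPM and the other 2 at the control level. Se mice had 4, 9.67, 3.31 and 2.77 TPM. None of the 6 contrasts was called for Btg2, with limma adjusted p from 0.361 to 1.

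Ccng1 (cyclin G1, a p53 target that guides the PP2A phosphatase to MDM2) was 11.82, 11.46, 11.94 and 13.25 TPM in control and 10.5, 9.66, 7.03 and 10.8 TPM in Cd mice. Every Cd mouse was below every control mouse, at means of 9.50 ± 1.71 and 12.1 ± 0.782 TPM. The log2 fold change was -0.34 (SE 0.132, adjusted p = 0.0643), outside the threshold. The adjusted p was 0.0437 when Se mouse 40 was left out, but the change shrank to -0.14 after quantile normalization (adjusted p = 0.261) and to -0.12 after centring each library on its median (0.341). Cd+Se mice had 12.33, 12.79, 11.01 and 13.02 TPM, each above every Cd mouse, with a change against Cd of 0.35 (SE 0.132, unadjusted p = 0.0166, adjusted p = 0.0757), which became 0.17 and 0.16 under those scalings. Se mice had 11.47, 16.73, 13.28 and 12.98 TPM. Ccng1 was thus low in the Cd mice and back in the control range in 3 of 4 Cd+Se mice, though neither step passed the threshold.

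Mdm2, the feedback gene, was 14.81, 16.5, 16.39 and 17.23 TPM in control and 22.86, 21.45, 14.99 and 16.78 TPM in Cd mice. Cd mice 1 and 2 were above the control range and the other 2 within it. The log2 fold change was 0.20 (95% interval -0.18 to 0.58, adjusted p = 0.424). This call depends on scaling, since quantile normalization gave 0.36 with an adjusted p of 0.0344 and centring each library on its median 0.42 with 0.0184. Cd+Se mice had 15.01, 16.92, 18.13 and 21.51 TPM and Se mice 16.69, 29.6, 15.23 and 20.87 TPM, with mouse 40 the highest of all 16. Phlda3, which encodes an inhibitor of AKT, was at most 1.13 TPM in any mouse. It ranged from 0.46 to 0.79 TPM in control, 0.4 to 1.01 in Cd, 0.18 to 0.95 in Cd+Se and 0.38 to 1.13 TPM in Se mice. The 5 exact two-sided permutation tests, over 70 arrangements of 4 mice against 4 with a smallest possible p of 0.0286, gave p from 0.486 to 1, and 0.892 to 1 after adjustment over the 5.

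**Figure D2:**
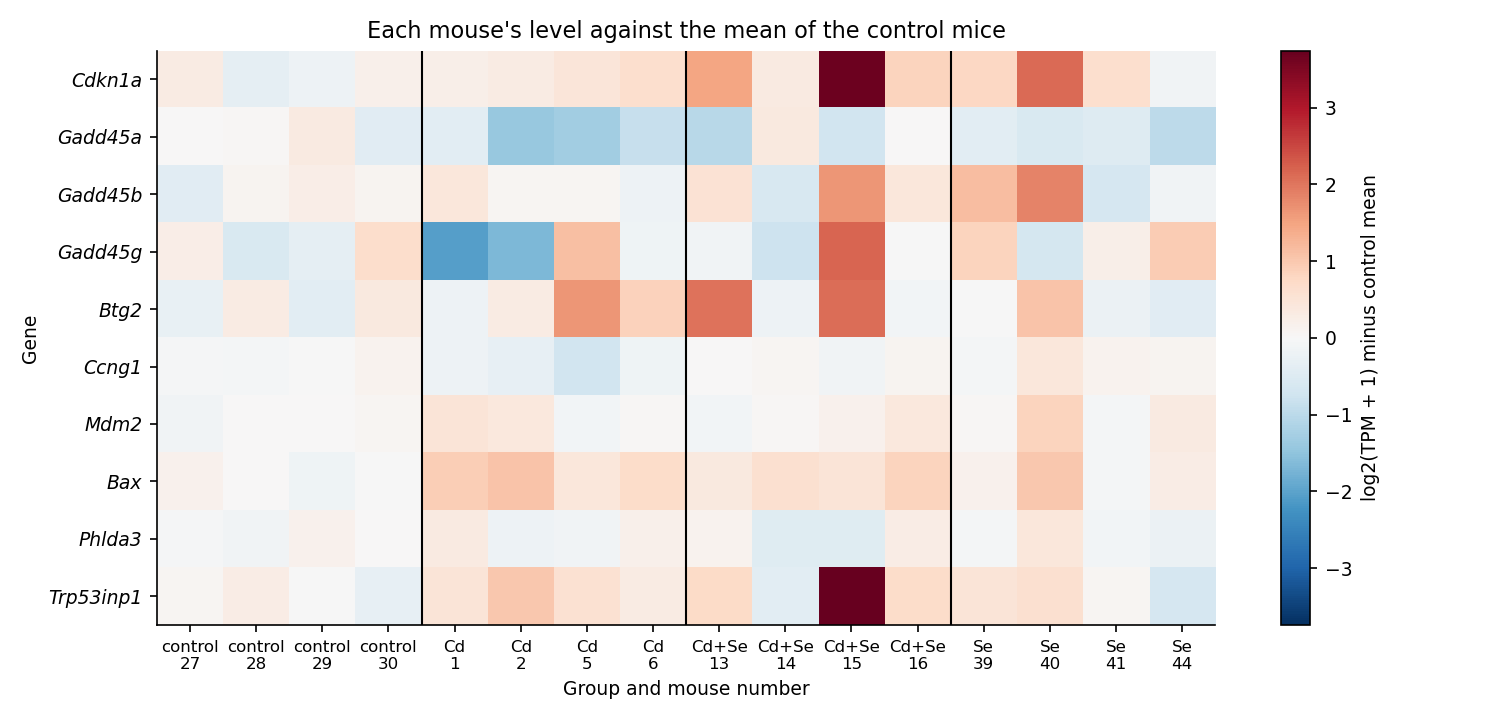
Difference of log2(TPM + 1) from the mean of the control mice for each gene (rows) in each of the 16 mice (columns, by group and mouse number), red above and blue below the control mean. Mouse 15 is darkest red in Cdkn1a and Trp53inp1, Gadd45a is blue in all 4 Cd mice and Bax is red in all 4.

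Whether Cd-injected mice differed with Se in the diet was asked by comparing Cd+Se with Cd mice. This comparison also holds any effect of Se itself. The interaction, given last, asks whether the response to Cd changed. The Cd mice are shared with the first comparison, so a rise in one and a fall in the other are not independent. No gene of the 9 was called by limma, beside 15.9% of all genes, of which 13.6% rose and 2.35% fell. At an unadjusted p under 0.05 there were 3 (Cdkn1a, Ccng1 and Gadd45a, all higher with Se) beside 33.1% of all genes, and only Ccng1 had groups that did not overlap, beside 19.2%. The median log2 change was 0.41 in the 9 genes and 0.17 in all genes, but without Cd+Se mouse 15 it was 0.03 in the 9 genes and 0.18 in all genes. Cd+Se against control gave 0 calls beside 0.484%, with 2 at an unadjusted p under 0.05 (Cdkn1a and Bax) beside 10.9%, and the same 2 did not overlap, beside 8.86%. Se against control gave no call and none at an unadjusted p under 0.05 in limma, where all genes gave 0% and 3.86%. Cd+Se against Se also gave 0 and 0, beside 0.714% and 10.9%. The interaction gave 0 calls and 1 at an unadjusted p under 0.05, beside 1.04% and 21.3%.

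**Figure D3:**
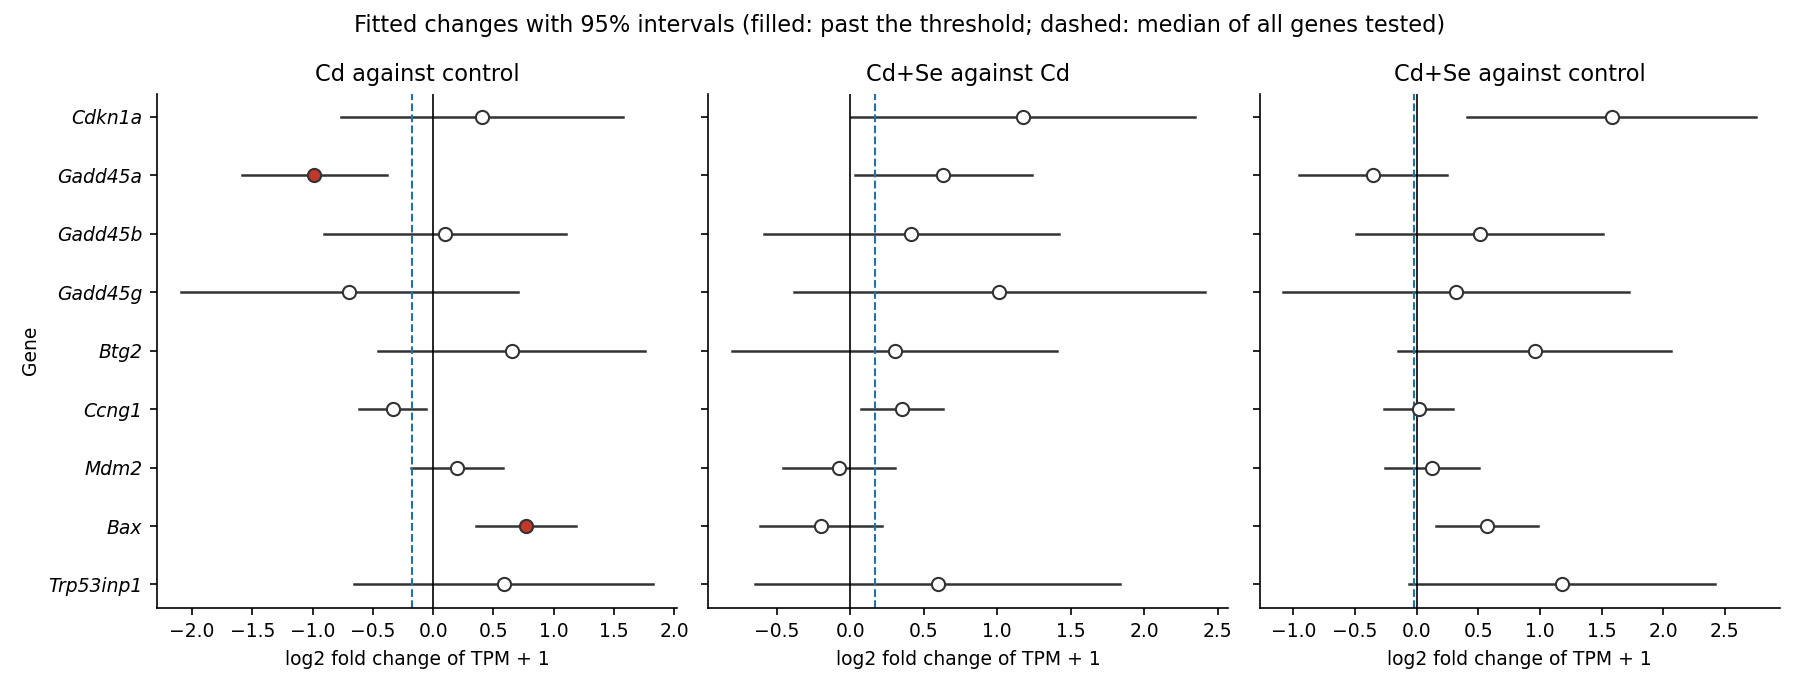
Fitted log2 fold change of TPM + 1 (points) with 95% intervals (lines) for the 9 tested genes in Cd against control, Cd+Se against Cd and Cd+Se against control, filled where the adjusted p is under 0.05 and with a dashed line at the median of all genes. Bax at 0.77 and Gadd45a at -0.99 are the 2 filled points, and the widest intervals belong to Gadd45g, Trp53inp1, Cdkn1a and Btg2.

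All genes together shifted under Cd, by a median of -0.17, and back by 0.17 in Cd+Se against Cd. Of the Cd calls 81.1% were lower, but 57.1% after quantile normalization and 44.4% after centring on library medians. In Cd+Se against Cd the lower share was 14.7%, 43.7% and 57.6%. For the 9 genes the split under Cd was 1 higher and 1 lower as deposited and 2 higher and 1 lower under either scaling, Mdm2 being the addition.

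A wider list of 43 p53 target genes gave a larger view, and 31 of them were tested. Under Cd 7 rose and 2 fell, which is 29% beside 30.8% of all genes, with a median log2 change of 0.05. By direction, 5.82% of all genes rose and 24.9% fell. The split of the list became 9 higher and 2 lower after quantile normalization and 10 and 2 after centring. Whether its direction differs from that of all genes was not tested. The largest changes were in Gdf15 (a stress cytokine, 1.53, from 1.70 ± 0.963 to 7.35 ± 4.76 TPM), Plk3 (a stress kinase, 1.45, from 11.7 ± 1.94 to 34.7 ± 11.9 TPM), and Btg1 (a relative of Btg2, 0.84). Bbc3, which encodes the apoptosis activator PUMA, rose by 0.68 with an adjusted p of 0.0495. Tigar, a regulator of glycolysis, changed by -0.79, and Xpc, a DNA damage sensor of nucleotide excision repair, by -0.78 with every Cd mouse below every control mouse. With Se added, 1 of the 31 rose and 1 fell against Cd (6.45%): Xpc (0.55) and Rps27l (a ribosomal protein of the p53 response, -0.42, with an adjusted p of 0.0523 without mouse 15). All genes gave 15.9%. The 70 genes that the deposited annotation puts in the KEGG p53 signaling pathway, of which 7 are described above, gave 3 higher and 9 lower of 54 tested under Cd (22.2%, beside 30.8% of all genes) and 2 higher and 1 lower in Cd+Se against Cd (5.56%, beside 15.9%). The Cd split became 7 higher and 6 lower after quantile normalization and 9 and 5 after centring, and the Cd+Se split became 4 and 1 without mouse 15. This list was added after the data were seen.

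**Figure D4:**
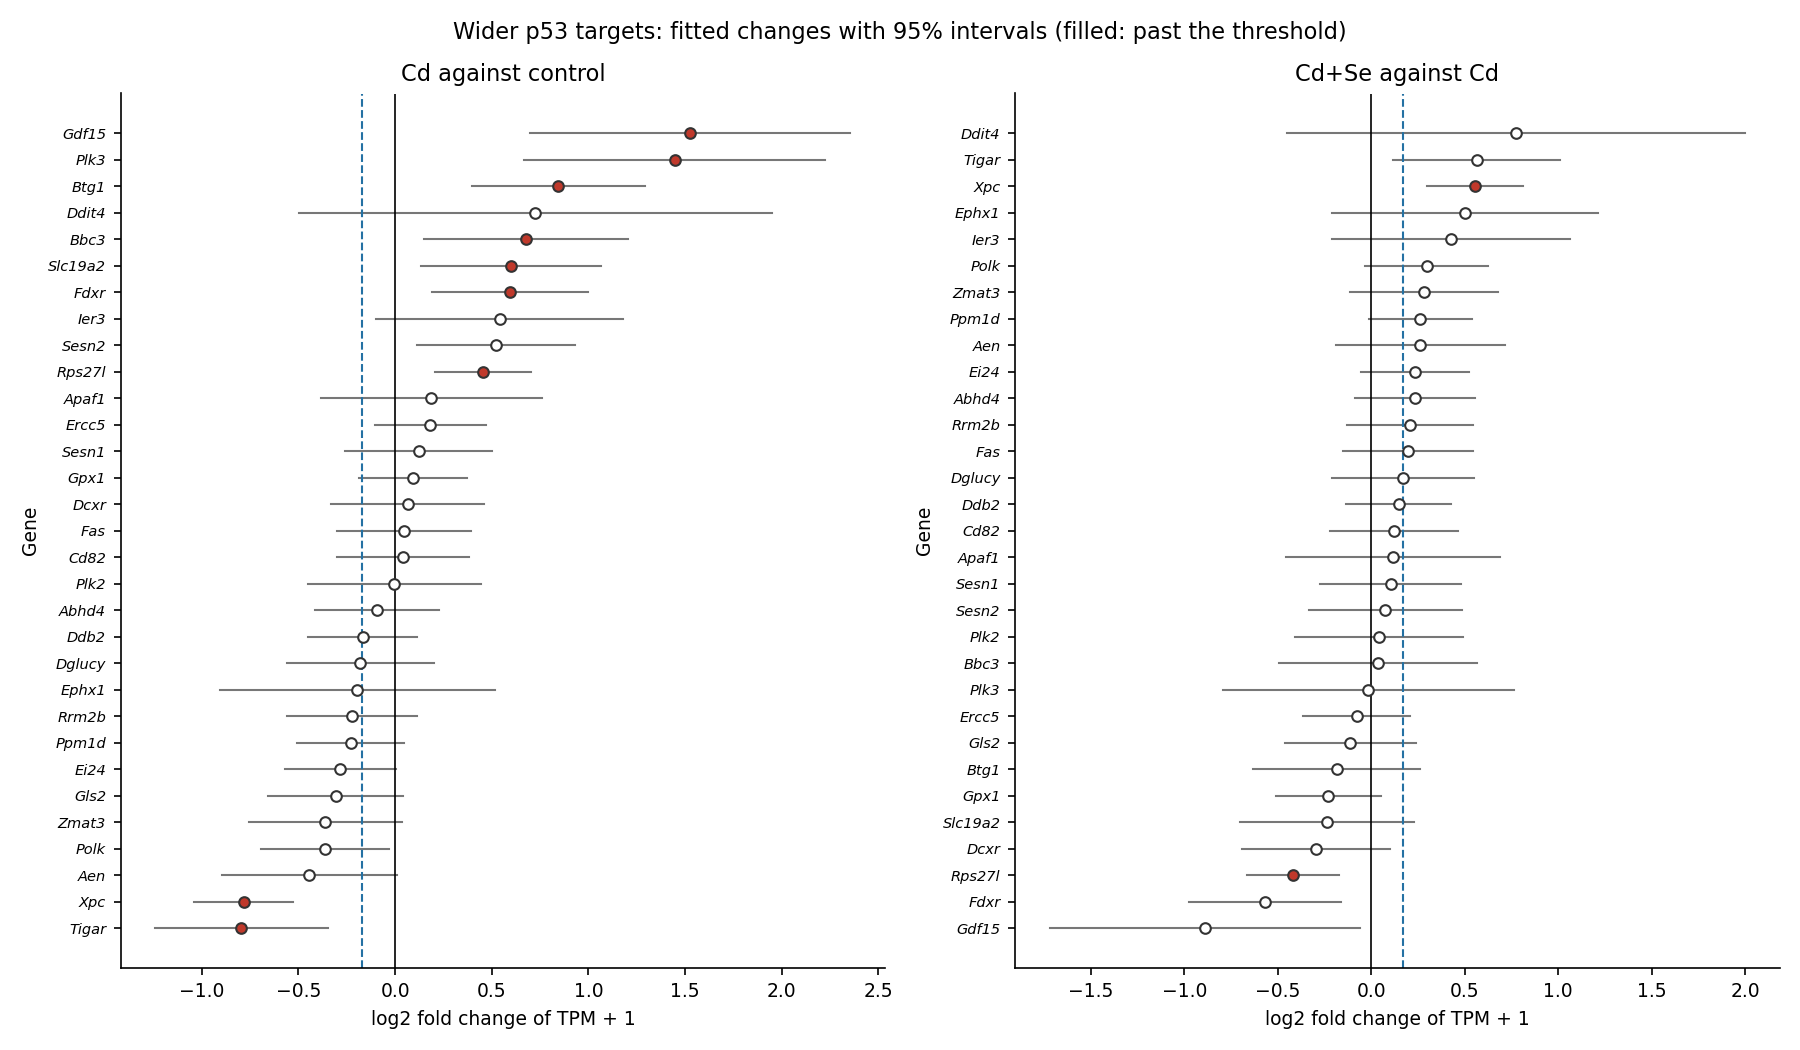
Fitted log2 fold change of TPM + 1 with 95% intervals for the 31 tested genes of the wider p53 target list, sorted, in Cd against control and Cd+Se against Cd, filled where the adjusted p is under 0.05 and with a dashed line at the median of all genes. Gdf15 and Plk3 lead the higher side of the first panel and Tigar and Xpc the lower, and Xpc and Rps27l are filled in the second.

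Among the genes of p53 itself and its regulators, 13 of 17 were tested. As deposited, none rose and 5 fell under Cd (38.5%), where 24.9% of all genes fell and 5.82% rose. The split became 1 higher and 3 lower after quantile normalization and 3 and 3 after centring. Cop1, a ubiquitin ligase that targets p53, went from 33.8 ± 1.45 to 14.4 ± 4.71 TPM (log2 fold change -1.22, adjusted p = 0.000441), and every Cd mouse was below every control mouse. In Cd+Se mice Cop1 was 32.4 ± 6.99 TPM, a rise of 1.14 over Cd (adjusted p = 0.00436), and it was the only gene of the p53 lists called in the interaction (1.36, adjusted p = 0.0343). Hipk2, a kinase that phosphorylates p53, changed by -1.14, and Usp7, the deubiquitinase of MDM2 and p53, by -0.56. Chek2 and Ep300 were called at -0.55 and -0.49 but not after either scaling. Trp53, the gene of p53, is added here outside the naming rule: it was 10.1 ± 0.735 TPM in control and 9.14 ± 1.51 TPM in Cd mice, with a log2 change of -0.13 and an adjusted p of 0.563.

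Relatives and partners of the 10 genes gave 3 higher and 5 lower of 22 tested under Cd (36.4%, beside 30.8% of all genes), and 4 and 5 after quantile normalization or 5 and 4 after centring. The kinases of the p38 pathway that GADD45 proteins act through were among those that fell: Map2k6 (-1.10, from 7.93 ± 0.621 to 3.23 ± 0.908 TPM), Map2k3 (-0.82) and Mapk14, the p38 kinase itself (-0.74, from 39.5 ± 3.24 to 23.3 ± 3.37 TPM). Bak1, the partner of Bax in opening the mitochondrial membrane, changed by -0.97, opposite to Bax, from 5.91 ± 0.795 to 2.52 ± 0.421 TPM. Btg1 (0.84) and Ccng2, the relative of Ccng1 (0.80), rose. Outside the naming rule and chosen after their values were seen, Map3k4, the kinase that GADD45 proteins bind, changed by -0.62, and by -0.40 with an adjusted p of 0.0579 after centring, and Gadd45gip1, a binder of GADD45 proteins, by 0.61. With Se added, 4 rose and 1 fell against Cd (22.7%, beside 15.9% of all genes): Bcl2l11 (the apoptosis activator BIM, 0.77), Bak1 (0.63), Mapk14 (0.55), Map2k3 (0.43, not called after either scaling) and Gadd45gip1 (-0.58).

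Of 15 tested cyclin, CDK and replication genes, none rose and 2 fell under Cd (13.3%, beside 30.8% of all genes), or 1 and 1 after centring: Ccnd1 (-1.48, from 11.9 ± 4.55 to 3.58 ± 1.23 TPM) and Mcm4 (-0.56, and not called after centring). With Se, Mcm4 rose by 0.55 against Cd, not called after either scaling or without mouse 15, and the rest did not pass. Of 16 immediate early and stress genes, 4 rose and none fell under Cd (25%), where 5.82% of all genes rose and 24.9% fell. After either scaling 5 rose and none fell. The 4 as deposited were Nr4a1 (1.69), Ddit3 (1.14), Trib3 (0.79) and Atf4 (0.60). Ddit3 has 2 rows in the table, and the higher one was used. Against Cd, Atf3 was higher by 0.71 in Cd+Se mice, not called after either scaling or without mouse 15, and Ddit3 changed by -0.78. Of 15 clock and glucocorticoid-responsive genes, 1 rose and 4 fell under Cd (33.3%, beside 30.8% of all genes). The split became 3 higher and 2 lower after either scaling. As deposited the called genes were Nr1d1 at 1.63 and Fkbp5, Hlf, Cry1 and Per2 at -1.28, -1.24, -0.48 and -0.41. Cry1 and Per2 were not called after either scaling. Nr1d1 (-1.63) and Fkbp5 (1.48) were called with the opposite sign in Cd+Se against Cd. Mouse 15 held 86.99 TPM of Fkbp5 where the other Cd+Se mice had 16.84 to 26, and without it the Fkbp5 change was 0.98 (adjusted p = 0.0372) and that of Nr1d1 -1.42 (0.0174).

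The transcripts whose pattern was most like Cdkn1a over the 16 libraries, by Pearson's r of log2(TPM + 1) among protein-coding genes, were Ddit4 (0.93), Cdip1 (0.90), Arid3b (0.86), Cebpd (0.85) and Tmc7 (0.84). Ddit4 encodes REDD1, an inhibitor of mTORC1, and Cebpd a transcription factor of the acute phase. Without mouse 15 the 5 values were 0.82, 0.79, 0.66, 0.64 and 0.75. Ddit4 was 44.45 TPM in mouse 15 and at most 12.19 TPM in the other 15. Arid3b ranged only from 0.85 to 2.06 TPM and Cebpd from 0.67 to 3.62 TPM, near the 1 TPM filter. The libraries share groups and a treatment, and the correlations are a description.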

How the data were processed

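Liver poly(A) RNA of 16 mice was sequenced on an Illumina NovaSeq instrument after TRIzol extraction, and a company made the libraries. The authors deposited 1 table of TPM values per gene and mouse. Per the labels, fastp, HISAT2 and StringTie were used. Their versions are not given in the sources used here, and the build named, GRCh38, is a human one although the gene identifiers are those of mouse. Each sample title names 2 runs, and the table holds 1 column per mouse. Each library sums to the same TPM total, so depth is unknown, and neither counting intervals nor detection floors can be given. All 16 columns were used, and 0 columns of values per sample were left out. Groups were taken from the labels. No source says that mice of a group came from separate litters or cages.

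Values were compared as log2(TPM + 1), which understates changes of low genes. The 11766 genes that averaged 1 TPM or more were fitted across all 16 libraries with limma 3.58.1 in R 4.3.3, with 1 mean per group, an intensity trend and Benjamini-Hochberg adjustment at 0.05, for 6 contrasts. The step was tested on simulated data. Phlda3 was compared by an exact two-sided permutation test. All 10 genes are named with their values, as are up to 6 called genes per list and comparison by size of change and the 5 genes most like Cdkn1a. Lists cover wider p53 targets, p53 and its regulators, relatives and partners, cyclins, immediate early genes, clock genes and cell type markers. A gene of these lists is not reported here. The genes and lists were chosen with earlier results of these data known. Positions are from GENCODE M21 (GRCm38) and promoter windows from RefSeq (GRCm38.p6). Trp53inp1 had no window. Alternatives were a pseudocount of 0.1, no filter, a minimum mean of 5 TPM, protein-coding genes only, quantile normalization, centring on library medians, only the groups compared, and leaving out each mouse, with leaving out mice 15 and 40 together, and the lists without mouse 15, added after the data were seen.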

Additional observations from a re-analysis of the deposited data

Results flagged for a closer look

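In groups of 4 mice, a mouse was singled out where Dixon's ratio, its gap to the next mouse over the spread of all 4, was above the 95% critical value. The ratio was taken on TPM. It was not computed on log2(TPM + 1), the scale of the tests, where a high mouse stands out less. Of the 40 groups of the 10 genes, 3 were singled out, where chance at 1 in 20 gives 2. All 3 were Cd+Se mouse 15: Cdkn1a with a ratio of 0.872 (21.49 TPM, others 1.24 to 3.84), Gadd45g with 0.895 (93.46 TPM, others 11.39 to 20.03) and Trp53inp1 with 0.931 (217.05 TPM, others 11.33 to 25.55). Among the 31 list genes named by size of change, 7 of 124 groups were singled out, where chance gives 6.2. Fkbp5 in the same mouse had a ratio of 0.869 (86.99 TPM, others 16.84 to 26). The rest were Hlf in Cd+Se mouse 13 (0.898, low), Nr4a1 in control mouse 27 (0.933, low), Ep300 in control mouse 28 (0.841, high) and Cd mouse 5 (0.967, low), Bbc3 in Se mouse 44 (0.886, low) and Rps27l in control mouse 28 (0.854, low).

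The effect of Cd on Cop1 differed with Se in the diet, with an interaction of 1.36 on the log2 scale (limma adjusted p = 0.0343). Cop1 was 33.8 ± 1.45 TPM in control, 14.4 ± 4.71 in Cd, 32.4 ± 6.99 in Cd+Se and 29.1 ± 3.53 TPM in Se mice (SD, n = 4).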

How the results depend on the processing

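TPM keep no depth, so precision rests on 4 mice a group. Of 59 changes of single genes, 39 kept their direction under every alternative run, and 20 reversed under at least 1. No paired analysis was possible because mouse numbers are not shared between groups. The cause of each change below was not tested, unless fewer genes or mice make it plain.

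Of the wider p53 targets, 5 were called in Cd against control at a minimum mean of 5 TPM (7390 genes tested), and 0 in Cd+Se against Cd with only the groups compared. Centring on library medians called 1 gene in the interaction (Bax, -0.74, adjusted p = 0.0427) and gave 0.0097 for Gadd45g in Cd+Se against Se. Without that centring, the Bax interaction was -0.55 (limma adjusted p = 0.26), and -0.33 (0.339) with Se mouse 40 left out. Phlda3 in Se against control became -0.0398 at a pseudocount of 0.1 and -0.017 after quantile normalization. Without mice 15 and 40 the log2 change became -0.072 (Btg2) and -0.26 (Trp53inp1) in Cd+Se against Cd, -0.30 (Gadd45g) in Cd+Se against control, and -0.23 (Btg2), -0.020 (Trp53inp1) and -0.14 (Phlda3) in Se against control. For Cd+Se against Se it became 0.0019 (Gadd45b), 0.014 (Mdm2), 0.017 (Ccng1) and 0.13 (Phlda3), and in the interaction -0.28 (Gadd45g) and -0.24 (Trp53inp1).

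Leaving out 1 mouse at a time, the genes called ranged from 1 to 3 in Cd against control and from 0 to 1 in Cd+Se against Cd, and the wider targets from 6 to 10 and from 1 to 3, the value of 1 coming without Cd mouse 1 or 2 or Cd+Se mouse 14 or 15. The log2 changes that reversed ranged as follows. In Cd against control, Gadd45b ranged from -0.049 to 0.19 and Phlda3 from -0.046 to 0.13. In Cd+Se against Cd, Mdm2 ranged from -0.18 to 0.015, Btg2 from -0.072 to 0.68 and Trp53inp1 from -0.26 to 1.12. In Cd+Se against control, Ccng1 ranged from -0.0088 to 0.066 and Gadd45g from -0.30 to 0.68. In Se against control, Btg2 ranged from -0.23 to 0.27, Trp53inp1 from -0.020 to 0.38 and Phlda3 from -0.14 to 0.072. For Cd+Se against Se, Gadd45b ranged from -0.45 to 0.39, Mdm2 from -0.28 to 0.023, Gadd45g from -0.64 to 0.34 and Phlda3 from -0.25 to 0.023. In the interaction, Cdkn1a ranged from -0.37 to 0.75, Gadd45b from -0.54 to 0.29, Btg2 from -0.17 to 0.58 and Trp53inp1 from -0.39 to 0.99.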

Other observations

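Other genes of Cd+Se mouse 15 also lay outside the range of the other 15 mice, chosen after their values were seen. Igfbp1, a liver gene that rises in fasting, was 762.78 TPM against 7.53 to 150.93 TPM, and Cyp4a14, a target of the fatty acid receptor PPARA, was 1289.02 TPM against 2.76 to 262.48 TPM. Fasn, the fatty acid synthase, was 30.99 TPM against 52.4 to 381.96 TPM, and Srebf1, a regulator of lipid synthesis, 15.21 TPM against 38.62 to 192.89 TPM. Mt1 was 5879.63 TPM in this mouse, within the 3621.35 to 6070.32 TPM of the other Cd+Se mice. Whether these values move with Cdkn1a, Gadd45g and Trp53inp1 beyond this 1 mouse was not tested.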
